A study of Sus scrofa with 6 samples.

Results

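Gluconeogenesis and glycogen turnover let a newborn liver hold blood glucose once the placental supply ends. The genes of these routes described here are 10 listed by symbol, and 9 of the 10 had a row among the 26733 genes measured. The listed genes were PC, PCK1, PCK2 and FBP1 of glucose synthesis, SLC37A4 and SLC2A2 of glucose export, UGP2, GYS2 and PYGL of glycogen turnover, and the coactivator PPARGC1A. FBP1, a fructose bisphosphatase of gluconeogenesis, did not match by identifier and is not analysed here. Rows of the listed genes were found by matching Ensembl pig gene identifiers to symbols, a step that used no measured value. The list itself was chosen with earlier results of these data known.

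Liver RNA of newborn piglets from Landrace x Yorkshire crosses was sequenced after the sows had eaten tryptophan on 1 of 2 daily schedules. In the 2×Trp group both meals held 0.26% tryptophan. In the High-Low group the morning meal held 0.39% and the afternoon meal 0.13%. There were 3 libraries for each schedule, with values read as FPKM, fragments scaled to transcript length and to the size of the library. The labels give no age beyond newborn, no time since the last feed, and nothing on whether each library is a separate animal or litter. P-values here refer to the spread among the deposited samples, part of which may be technical.

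Before birth the fetus takes glucose from its mother and stores glycogen. At birth, glucagon and catecholamines rise and insulin falls, the liver breaks that glycogen down, and gluconeogenesis from lactate, amino acids and glycerol is switched on. PC carboxylates pyruvate to oxaloacetate, and the PCK enzymes turn oxaloacetate into phosphoenolpyruvate. SLC37A4 carries glucose 6-phosphate into the endoplasmic reticulum for the last step, and SLC2A2 (GLUT2) lets glucose cross the hepatocyte membrane. UGP2 makes UDP-glucose, GYS2 adds it to glycogen and PYGL removes glucose units from it.

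Totals per library ran from 956426 to 1230288 FPKM, and read depth is unknown. The liver label was checked against 24 hepatocyte markers, of which 21 had a row and 20 passed the filter of 1 FPKM in at least 3 libraries. ALB ran from 9391 to 19795 FPKM, while AHSG, another secreted liver protein, was listed at 0 in all 6 libraries. An exact 0 in such values can be a failed estimate. Summed hepatocyte markers ran from 132456 to 160417 FPKM in 2×Trp and from 102709 to 173937 in High-Low. In whole tissue, fewer cells of a type and less RNA per cell cannot be told apart.

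The 9 measured genes fell into tiers of abundance that ran from 486 to 2.92 FPKM in mean. SLC37A4, PCK1, PC and PCK2 formed the top tier, with means of 486 ± 78.2, 401 ± 93.2, 393 ± 74.4 and 329.6 ± 48.9 FPKM (SD, n = 6 libraries). GYS2 and PYGL followed at 97.6 ± 54.9 and 85.1 ± 10.6 FPKM, UGP2 and SLC2A2 at 39.8 ± 22.0 and 30.7 ± 19.5, and PPARGC1A at 2.92 ± 0.975. The 8 differences between neighbours in this order were tested by exact two-sided sign flips over the 6 libraries, where the smallest possible p is 0.0312. The order came from the means of the same 6 libraries, so these p-values are no independent test of it. PCK2 exceeded GYS2 in 6 of 6 libraries, by a geometric mean of 4.32-fold, PYGL exceeded UGP2 in 6 of 6 by 2.51-fold, and SLC2A2 exceeded PPARGC1A in 6 of 6 by 9.50-fold. Each of these 3 steps had an exact permutation p of 0.0312 and an adjusted p of 0.0833. GYS2 did not hold its tier in every library: in High-Low 2 its 12.3 FPKM lay below UGP2 at 12.9 and SLC2A2 at 14.0. Neighbours inside a tier also changed places between libraries. PCK1 was above PC in 3 of 6 libraries, GYS2 above PYGL in 4 of 6, UGP2 above SLC2A2 in 4 of 6, SLC37A4 above PCK1 in 4 of 6, and PC above PCK2 in 5 of 6. FPKM are per length, and the tables list a length of 250 for PC and 243 for PYGL against 2142 for PCK1 and 2844 for UGP2. The labels do not say which length the authors divided by, so levels of different genes are approximate.

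**Figure D1:**
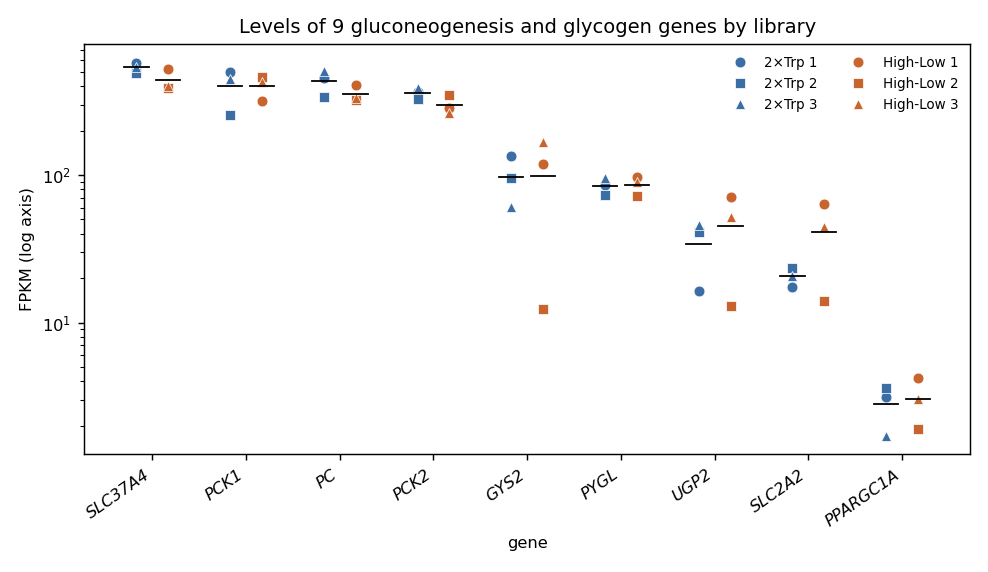
FPKM of the 9 measured genes on a log axis, with 1 point per library (blue for 2×Trp, orange for High-Low, marker shape for the replicate number) and black bars for group means. SLC37A4, PCK1, PC and PCK2 lie between 257 and 577 FPKM in every library, while GYS2, UGP2 and SLC2A2 spread widely and are lowest in High-Low 2.

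All 9 genes passed the filter on low values, and 0 of 9 passed the test for a difference between the maternal diets in limma on log2(FPKM + 1). Their adjusted p was 0.998 each, and over all 10901 genes tested 0.00917% passed an adjusted p of 0.05. At an unadjusted p under 0.05 the count was 0 of 9, against 3.16% of all genes tested. The 2 groups failed to overlap for 0 of 9 genes, where they did so for 7.18% of all genes tested. The median log2 fold change (High-Low minus 2×Trp) was 0.02 over the 9 genes, 5 positive and 4 negative, and 0.00 over all genes tested (-0.004). With 3 libraries a group, the intervals below show which changes these data leave possible.

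PC, pyruvate carboxylase, opens gluconeogenesis in the mitochondrion (ENSSSCG00000012926, chromosome 2, 4604883 to 4609731 in susScr3). It had 456, 339 and 503 FPKM in 2×Trp 1, 2 and 3 and 406, 323 and 333 in High-Low 1, 2 and 3. The lowest libraries were High-Low 2 and High-Low 3, close to 2×Trp 2, and the groups overlapped. The log2 fold change was -0.28 (SE 0.21, 95% interval -0.78 to 0.22, limma). That interval runs from 0.584-fold to 1.17-fold on the log2(FPKM + 1) scale, so a 2-fold rise lies outside it.

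PCK1, the cytosolic phosphoenolpyruvate carboxykinase whose mRNA is induced at birth, lies at 65094783 to 65100751 of chromosome 17 (ENSSSCG00000007507). Its libraries had 498, 257 and 446 FPKM in 2×Trp and 317, 459 and 428 in High-Low. Both the highest and the lowest value were in 2×Trp. The group means of 400.1 ± 127 and 401 ± 75.0 FPKM were almost equal, and the log2 fold change was 0.04 (SE 0.29, 95% interval -0.64 to 0.73, limma). Leaving out 2×Trp replicate 2 turned it to -0.25.

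PCK2, the mitochondrial isoenzyme (ENSSSCG00000002009, chromosome 7, 80458471 to 80468943), had 366, 326 and 389 FPKM in 2×Trp and 285, 351 and 261 in High-Low. High-Low 2 was above 2×Trp 2, and the other 2 High-Low libraries were below all of 2×Trp. The difference was -0.28 on the log2 scale (SE 0.19, 95% interval -0.72 to 0.17, limma). Across libraries PCK1 made up 44.0% to 62.1% of the PCK1 and PCK2 sum, with a mean of 54.4% ± 6.11 (SD, n = 6). The PCK1 to PCK2 ratio was 1.36, 0.787 and 1.15 in 2×Trp and 1.11, 1.31 and 1.64 in High-Low. The cytosolic and the mitochondrial transcript were thus of similar abundance in every library, within the limits that the listed lengths set.

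SLC37A4, the glucose 6-phosphate translocase (ENSSSCG00000015105, chromosome 9, 51282372 to 51287727), was the most abundant of the 9. It had 577, 488 and 543 FPKM in 2×Trp and 526, 386 and 399 in High-Low. Only High-Low 1 reached into the 2×Trp range. The log2 fold change of -0.30 (SE 0.19, 95% interval -0.76 to 0.15, limma) was the one with the smallest unadjusted p of the 9, at 0.155. PC, PCK2 and SLC37A4 kept a negative sign in every alternative tried, and SLC2A2 kept a positive one, with adjusted p of at least 0.238 throughout.

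SLC2A2, the glucose transporter GLUT2 (ENSSSCG00000020927, chromosome 13, 118535743 to 118557269), had the largest diet difference of the 9. The 2×Trp libraries were close together, at 17.5, 23.5 and 20.6 FPKM. The High-Low libraries were spread, at 64.04, 14.0 and 44.4 FPKM, with High-Low 2 below and the other 2 above all of 2×Trp. The log2 fold change was 0.73 (SE 0.50, 95% interval -0.46 to 1.91, limma), and changes from 0.729-fold to 3.75-fold lie inside that interval. Without High-Low replicate 2 it was 1.34 (adjusted p = 0.344), and without High-Low replicate 1 it was 0.29.

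**Figure D2:**
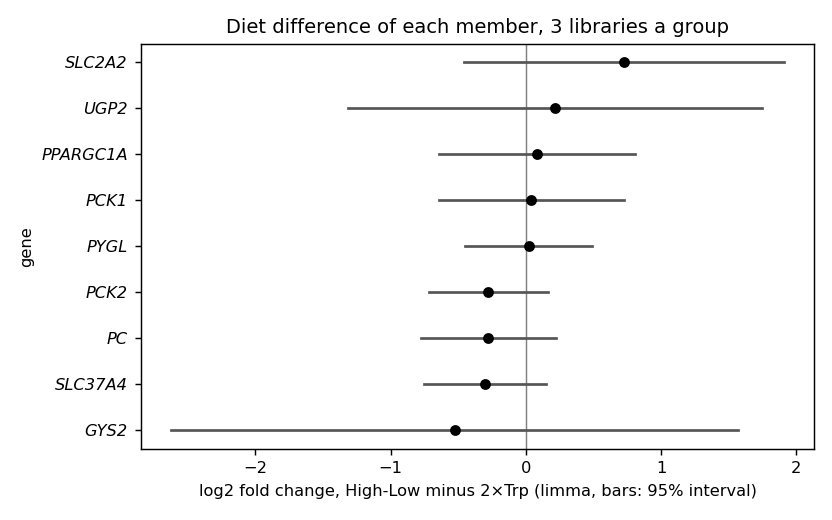
Log2 fold change of each gene (High-Low minus 2×Trp, points) with limma's 95% interval (bars), 3 libraries a group. Every interval crosses 0, and those of GYS2, UGP2 and SLC2A2 are the widest.

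UGP2, UDP-glucose pyrophosphorylase, feeds glycogen synthesis (ENSSSCG00000008368, chromosome 3, 81976147 to 81989330). It had 16.4, 40.8 and 45.5 FPKM in 2×Trp and 71.0, 12.9 and 51.9 across the High-Low libraries. Each group held 1 low library, 2×Trp 1 and High-Low 2. Its log2 fold change was 0.22 (SE 0.65, 95% interval -1.31 to 1.75, limma), with -0.25 once High-Low replicate 1 was left out and 0.93 once High-Low replicate 2 was.

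GYS2, the liver glycogen synthase (ENSSSCG00000000577, chromosome 5, 55138959 to 55191703), varied most. It had 134, 94.9 and 60.6 FPKM in 2×Trp and 118, 12.3 and 166 in High-Low. High-Low 2 was the lowest of the 6 and High-Low 3 the highest, a 13.5-fold range inside 1 diet group. The log2 fold change was -0.53 (SE 0.89, 95% interval -2.62 to 1.57, limma), although the group means of 96.3 ± 36.5 and 98.9 ± 78.8 FPKM lay the other way round. Without High-Low replicate 2 it was 0.61 (adjusted p = 0.496). GYS1, the glycogen synthase of muscle and most other tissues, had 1.62 to 3.19 FPKM. GYS2 made up 97.2% to 98.6% of the GYS1 and GYS2 sum in 5 libraries and 79.4% in High-Low 2.

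PYGL, the liver glycogen phosphorylase (ENSSSCG00000005024, chromosome 1, 200948636 to 200991567), was the steadiest of the 9. It had 85.5, 72.9 and 94.7 FPKM in 2×Trp and 96.4, 71.9 and 89.1 in High-Low, a 1.34-fold range. The log2 fold change was 0.02 (SE 0.20, 95% interval -0.45 to 0.49, limma), so the interval covers 0.733-fold to 1.41-fold. PYGL made up 97.6% to 99.5% of the 3 phosphorylase genes, with PYGM at most 1.57 FPKM and PYGB at most 0.506. The GYS2 to PYGL ratio was 1.56, 1.30 and 0.639 in 2×Trp and 1.23, 0.171 and 1.87 in High-Low.

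PPARGC1A, the coactivator that drives PCK1 transcription in fasting, was the least abundant (ENSSSCG00000029275, on an unplaced scaffold at 15045 to 57267). It had 3.12, 3.58 and 1.71 FPKM in 2×Trp and 4.24, 1.89 and 3.02 in High-Low. High-Low 2 and 2×Trp 3 were the low libraries, and the log2 fold change was 0.08 (SE 0.31, 95% interval -0.64 to 0.81, limma). PPARGC1B, its close relative, had 0.671 to 1.52 FPKM.

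Spread between libraries divided the 9 genes. GYS2, UGP2 and SLC2A2 had SDs of 1.34, 0.94 and 0.81 on the log2 scale, above 98.9%, 96.8% and 94.8% of all genes tested. PCK1 and PPARGC1A lay at percentiles 60.6 and 61.5. PC, SLC37A4, PCK2 and PYGL were steadier than most genes, with SDs of 0.27, 0.24, 0.22 and 0.18, at percentiles 36.6, 29.8, 24.8 and 15.1. The 3 most variable genes thus came from glucose transport and glycogen synthesis.

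High-Low 2 stood apart in these genes. It was the lowest library for PC, SLC37A4, GYS2, PYGL, UGP2 and SLC2A2, 6 of 9, where 18.1% of all genes tested were lowest there. For PC, SLC37A4 and PYGL the gap to the next library was small, 323 against 333 FPKM, 386 against 399 and 71.9 against 72.9. PCK1 went the other way, with 459 FPKM in High-Low 2, the second highest value. High-Low 1 was the highest library for PYGL, UGP2, SLC2A2 and PPARGC1A, 4 of 9, where 23.6% of all genes tested were highest there.

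Markers of other cells also differed in High-Low 2. Of 9 neutrophil markers 7 had a row, all 7 passed the filter, and none was at 0 in all libraries. Their summed level was 39.4 to 60.0 FPKM in 2×Trp and 42.5 to 183 in High-Low, with the 183 in High-Low 2. Hepatocyte markers were not low there: their sum of 173937 FPKM was the highest of the 6 libraries, and 2 of 20 were lowest in High-Low 2. The part of the neutrophil markers in these results was not tested.

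**Figure D3:**
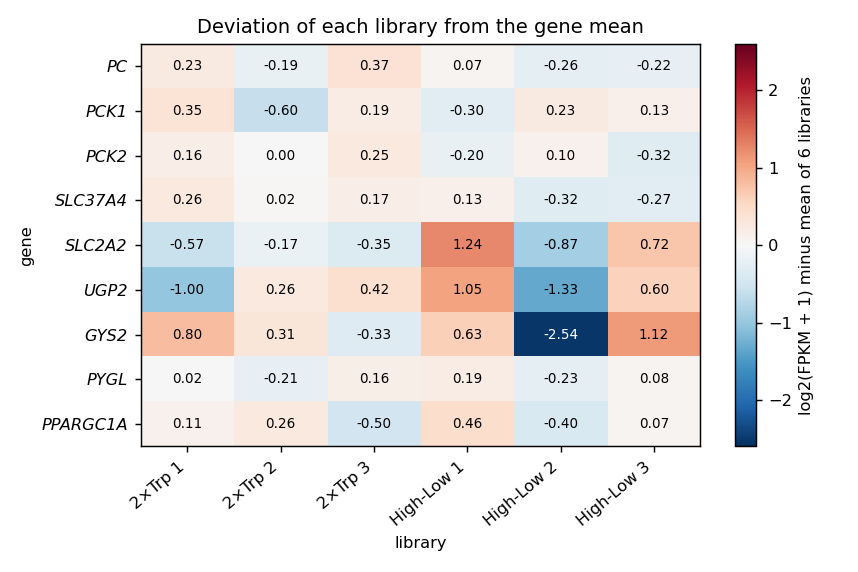
Deviation of each library (columns) from the mean of the 6 libraries for each gene (rows), in log2(FPKM + 1), with red above and blue below the mean. GYS2, UGP2 and SLC2A2 are low in High-Low 2 (-2.54, -1.33 and -0.87) and above their means in High-Low 1 and High-Low 3, while the rows of PC, PCK1, PCK2, SLC37A4 and PYGL stay between -0.60 and 0.37.

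Agreement among the 9 genes over the libraries was limited. Of 36 pairs, 24 had a positive and 12 a negative Pearson's r, with a median of 0.26, against a median of 0.00 (0.001) over all pairs of tested genes. No pair of the 9 had r over 0.9, as 1.45% of all pairs of tested genes did. After adjustment over the 36 pairs 0 passed, with a smallest adjusted p of 0.537 for r and 0.300 for rho, and 1 pair had an unadjusted exact p under 0.05. UGP2 and SLC2A2 had r = 0.85 (exact permutation p = 0.0514, adjusted p = 0.537) and rho = 0.94 (exact permutation p = 0.0167, adjusted p = 0.300). Within groups r was 0.92 (0.915), and it was 0.92 (0.919) without High-Low 2 and 2×Trp 1, the libraries farthest from the UGP2 median. PC and SLC37A4 had r = 0.86 (exact permutation p = 0.0347, adjusted p = 0.537) and rho = 0.94 (exact permutation p = 0.0167, adjusted p = 0.300). Their r was 0.78 within groups and 0.83 without 2×Trp 1 and 2×Trp 3. PCK2 and SLC2A2 were opposed at r = -0.83 (exact permutation p = 0.05, adjusted p = 0.537) and rho = -0.71 (exact permutation p = 0.136, adjusted p = 0.629). That relation rested on High-Low 1 and High-Low 3, without which r was -0.18.

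PPARGC1A and PCK1 did not track each other, at r = -0.63 (exact permutation p = 0.161, adjusted p = 0.537), and r was 0.25 without 2×Trp 2 and High-Low 1. The isoenzymes PCK1 and PCK2 had r = 0.36 (exact permutation p = 0.494, adjusted p = 0.771). GYS2 and PYGL, which act in opposite directions on glycogen, had r = 0.56 (exact permutation p = 0.239, adjusted p = 0.541), and r was -0.06 without High-Low 2. The relation between GYS2 and UGP2 likewise went from r = 0.61 (exact permutation p = 0.176, adjusted p = 0.537) to -0.12 without that library.

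**Figure D4:**
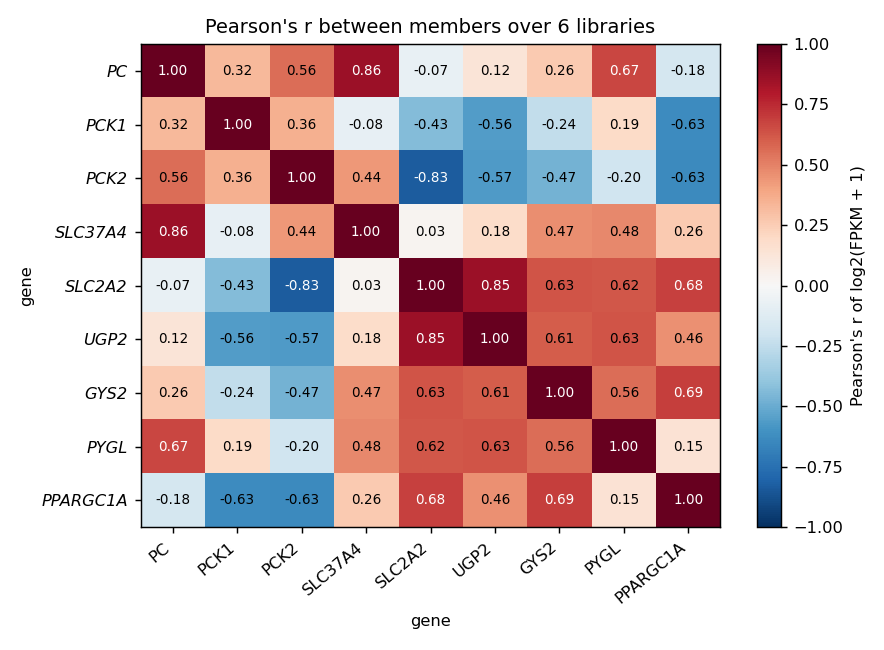
Pearson's r between each pair of the 9 genes over the 6 libraries, on log2(FPKM + 1), red for positive and blue for negative. SLC2A2, UGP2, GYS2 and PYGL form a positive block from 0.56 to 0.85, and PCK1 and PCK2 are negative with SLC2A2, UGP2 and GYS2, while no pair passed after adjustment.

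The genes with a symbol whose profile over the 6 libraries was nearest to each member had Pearson's r of 0.977 to 0.999. They were EPHA2 for PCK1 (r = 0.997), HSD17B10 for PCK2 (0.984), TMEM185A for PC (0.982), RETREG3 for SLC37A4 (0.977) and COP1 for SLC2A2 (0.995). SYNC was nearest to UGP2 (0.996), TP53INP2 to GYS2 (0.994), BCL6 to PYGL (0.999) and CCNL1 to PPARGC1A (0.986). The second nearest were ABI3BP, AP2M1, PWWP3A, GPC3, SMC1A, ELF2, SNX33 and GSR, in the same order of members, PPARGC1A left out. With 6 libraries and 6531 candidates such values are common: a gene with a symbol had a median of 19 others with r over 0.95. UGP2 and SLC2A2 had 107 and 109 of them, above the 90th percentile of 78, and the other 7 members had 3 to 21.

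The rest of the glycogen machinery was described from a list of 28 genes, of which 22 had a row and 17 were tested. Between diets 10 of the 17 were positive and 7 negative. Their median log2 fold change was 0.12, and limma called 0, with 0 at an unadjusted p under 0.05. GSK3B, a kinase that inhibits glycogen synthase, had 9.42 ± 1.52 FPKM in 2×Trp and 11.9 ± 1.49 in High-Low (SD, n = 3 each). PPP1CC, a phosphatase catalytic subunit, had 8.40 ± 3.04 against 13.2 ± 6.55, and PHKG2, the liver phosphorylase kinase subunit, 10.4 ± 0.681 against 8.80 ± 2.28. GAA, which degrades glycogen in lysosomes, was the most abundant of the list at 59.5 ± 18.1 and 63.2 ± 5.42 FPKM. None of these differences passed the test (adjusted p = 0.998 each).

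By library, 4 of the 17 tested genes of this list (23.5%) were lowest in High-Low 2, close to the 18.1% of all genes tested. GBE1, PPP1R3C, PPP1R3D and PPP1R3G were chosen after their values were seen. GBE1, the branching enzyme, had 4.68, 10.8 and 7.31 FPKM in 2×Trp and 31.8, 2.84 and 16.1 in High-Low. It was lowest in High-Low 2, then 2×Trp 1, and highest in High-Low 1, as UGP2 was. The phosphatase targeting subunits, which bring a phosphatase to glycogen and so activate glycogen synthase, did not share 1 pattern. PPP1R3B had 17.8, 14.3 and 7.74 FPKM in 2×Trp and 12.9, 29.8 and 12.1 in High-Low. PPP1R3C had 21.1, 17.7 and 24.0 against 12.4, 55.3 and 24.9, so these 2 were highest in High-Low 2. PPP1R3D had 2.78, 1.27 and 1.30 FPKM against 0.492, 0.482 and 3.09, and PPP1R3G 9.001, 6.41 and 2.69 against 5.14, 3.69 and 6.43. GYG1, the primer protein of glycogen, stayed between 2.52 and 3.80 FPKM.

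**Figure D5:**
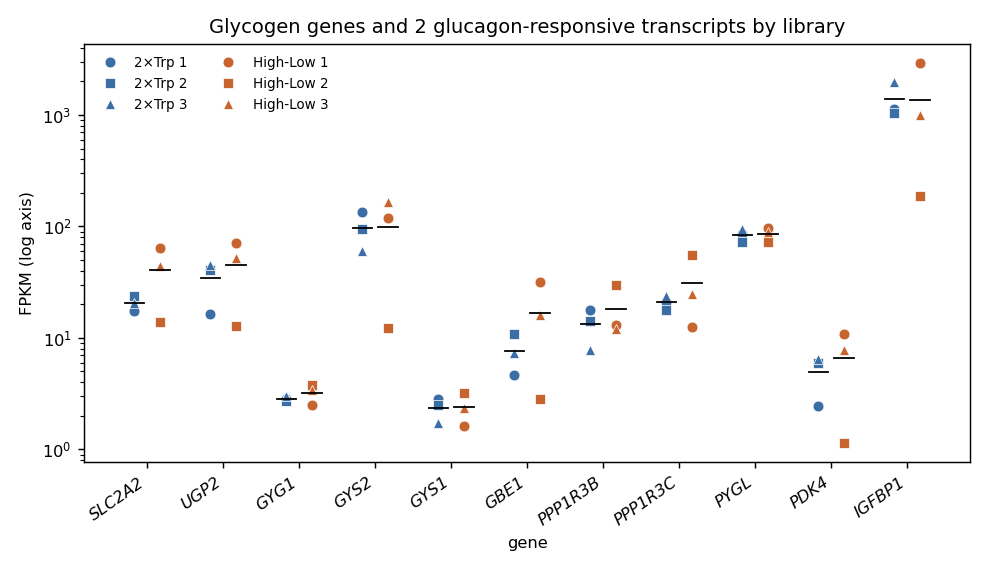
FPKM by library on a log axis for genes of glucose transport, glycogen synthesis and breakdown and for PDK4 and IGFBP1, with points and bars as in the plot of the 9 genes. High-Low 2 (orange square) is the lowest point for SLC2A2, UGP2, GYS2, GBE1, PYGL, PDK4 and IGFBP1 and the highest for GYG1, GYS1, PPP1R3B and PPP1R3C.

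Other enzymes of gluconeogenesis and glycolysis gave no call between diets. Of 46 listed genes 37 had a row and 32 were tested, 18 positive and 14 negative. The median log2 fold change was 0.04, with 0 called by limma and 1 (HK1) at an unadjusted p under 0.05. GAPDH led them at 1880 ± 386 FPKM in 2×Trp and 2132 ± 376 in High-Low (SD, n = 3 each). ENO1 had 363 ± 46.2 FPKM over the 6 libraries and made up 98.6% to 99.6% of the enolase genes. FBP2, the muscle isoenzyme of fructose bisphosphatase, had 2.10, 3.69 and 8.62 FPKM in 2×Trp and 10.2, 4.67 and 11.4 in High-Low, with a log2 fold change of 0.83 (limma, unadjusted p = 0.121). G6PC3, the glucose 6-phosphatase found in most tissues, had 15.2 ± 2.88 FPKM (SD, n = 6), and the liver form G6PC1 is not analysed here.

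Hormone receptors, kinases and transcription factors that govern glucose output gave 13 positive and 14 negative fold changes among 27 tested of 49 listed, with a median of -0.01 and 0 called by limma (0 at an unadjusted p under 0.05). PPARA, which drives fatty acid oxidation in fasting, had 2.26 ± 0.974 FPKM in 2×Trp and 4.10 ± 1.57 in High-Low, and the glucocorticoid receptor NR3C1 1.41 ± 0.262 against 2.51 ± 1.19. MLXIPL, the carbohydrate response factor, had 21.7 ± 4.49 against 26.3 ± 0.693 FPKM. HSD11B1, which regenerates active glucocorticoid, was the most abundant of the list at 114 ± 13.7 and 97.0 ± 26.3 (SD, n = 3 each, adjusted p = 0.998 each in limma). These values did not pass the test.

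Transcripts known to rise with glucagon, cyclic AMP or glucocorticoid gave a split picture by library. Of 14 listed 10 were tested, 2 positive and 8 negative between diets, with a median log2 fold change of -0.28 and 0 called by limma (0 at an unadjusted p under 0.05). IGFBP1, an insulin-repressed and fasting-induced secreted protein, had 1133, 1034 and 1975 FPKM in 2×Trp and 2925, 187 and 990.2 in High-Low. High-Low 2 again was the lowest library, and 4 of the 10 genes were lowest there. PDK4, a fasting-induced kinase that spares pyruvate, was also chosen after its values were seen and had 1.14 FPKM in High-Low 2 against 2.45 to 10.7 elsewhere. PCK1, which responds to the same hormones, was at 459 FPKM in High-Low 2 and so did not share this pattern. TAT had 250.5 ± 80.6 FPKM in 2×Trp and 172 ± 44.7 in High-Low, PER1 34.1 ± 4.87 and 25.9 ± 14.4, FGF21 18.1 ± 10.7 and 27.9 ± 15.6, and LPIN1 9.74 ± 7.54 and 4.38 ± 0.788 (SD, n = 3 each).

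Among hexose and substrate transporters 6 of 17 listed were tested, 5 positive and 1 negative. They had a median log2 fold change of 0.19, and limma called 0 (0 at an unadjusted p under 0.05). AQP9, the channel by which glycerol enters hepatocytes, had 17.6, 29.2 and 20.8 FPKM in 2×Trp and 44.3, 26.4 and 32.6 in High-Low. Only High-Low 2 reached into the 2×Trp range, and the log2 fold change was 0.59 (unadjusted p = 0.0645, adjusted p = 0.998). SLC2A2 made up 37.3% to 83.9% of the 4 hexose transporter genes with a row, the rest being mainly SLC2A8 at 12.2 ± 4.68 FPKM and SLC2A10 at 2.92 ± 0.640 (SD, n = 6). SLC25A13, a mitochondrial aspartate and glutamate carrier, had 34.3 ± 4.87 FPKM in 2×Trp and 41.7 ± 10.4 in High-Low. SLC25A1, the citrate carrier and the most abundant of the list, had 109 ± 12.4 and 102 ± 62.0 (SD, n = 3 each).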

How the data were processed

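RNA of frozen liver was taken up in Trizol and 1 ug went into each TruSeq library, per the labels' protocols. TopHat2 2.0.12, Bowtie2 2.2.3, HTSeq 0.6.1 and the susScr3 assembly are named in the submitters' processing notes. How the values were computed, with which annotation and whether by strand, is not stated there. For each library the authors deposited a table without a unit, and its values, which are fractional and differ in total, were taken as FPKM. Some values above 0 lie under 1e-10, so reads could not be recovered and depth is unknown.

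Groups came from sample titles. An identifier table gave symbols to 11804 of 25322 Ensembl genes, and 181 of 243 list symbols had a row. The 10901 genes that reached 1 FPKM in 3 or more libraries were compared on log2(FPKM + 1) in limma 3.58.1 (R 4.3.3), with a mean trend, robust moderation and Benjamini-Hochberg adjustment (threshold 0.05, 95% intervals). This scale understates low genes. The fit was tested on simulated data. Members and lists were chosen with earlier results of these data known. Named genes are the 9 members, the 4 genes of smallest p and the most abundant gene of each pathway list, isoenzymes of at least 1 FPKM, and the 2 nearest profiles of each member; PPARGC1B, PYGM, PYGB and AHSG were named after their values were seen, and a few genes that the rule names are not reported here. Alternatives covered scaling, filters, pseudocount, moderation, weights, a replicate block and leaving out libraries. Figures used matplotlib 3.10.9 in Python 3.11.15.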

Additional observations from a re-analysis of the deposited data

How the results depend on the processing

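No member passed the threshold in limma under any of the 16 alternatives to the fit, and the smallest adjusted p of a member was 0.238. At most 2 genes of the whole table were higher (without 2×Trp replicate 3; 1 to 2 when leaving out replicates). In place of 0 lower genes there was 1 when libraries were scaled to their FPKM total, with or without the 20 most abundant genes, with quantile normalization and with array quality weights. Leaving out single replicates moved the median over the members between -0.25 (-0.249) and 0.14. The same step moved GYS2 from -1.22 to 0.61, UGP2 from -0.25 to 0.93, PCK1 from -0.25 to 0.23, PPARGC1A from -0.14 (-0.145) to 0.30 (0.305), and PYGL from -0.078 to 0.14, so the direction of these 5 depends on single libraries. With array quality weights GYS2 was 0.745. With a filter at 5 FPKM PPARGC1A was not tested. Between 3 and 4 of the 8 neighbour steps in level held in every library when one was left out, and 0 pairs of members passed on deviations from group means or after the hepatocyte shift. A test without the 2 farthest libraries was not run on 4 libraries; r alone is given. The replicate block left 1 gene higher, 0 lower and 0 members called. Deviations of same-numbered libraries correlated at -0.216, -0.0113 and 0.0323 over genes, and those of differently numbered libraries at -0.133 to 0.119. Deviations from the means of 3 libraries a group cannot decide whether the numbers pair the libraries. The part of read depth could not be assessed, as depth is unknown.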

Other observations

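HK1, the hexokinase of most tissues, had 11.6, 11.2 and 10.3 FPKM in 2×Trp and 3.58, 8.55 and 6.69 in High-Low. The log2 fold change of -0.79 did not pass the test (limma, unadjusted p = 0.0288, adjusted p = 0.998). The groups did not overlap for HK1 and PKM, 2 of the 32 tested enzymes of gluconeogenesis and glycolysis, where they did not overlap for 7.18% of all genes tested. HK3, which is found in white blood cells, had 1.10 FPKM in High-Low 1 and 7.57 in High-Low 2. Over the 6 libraries HK1 had 8.65 ± 3.07 FPKM and HK3 4.46 ± 2.24 (SD, n = 6).

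Pyruvate kinase was divided between its liver gene PKLR and PKM, the gene of most other tissues. PKLR had 36.9, 39.1 and 25.0 FPKM in 2×Trp and 52.3, 19.8 and 33.1 in High-Low. PKM had 27.9, 33.6 and 29.4 FPKM in 2×Trp and 15.6, 26.9 and 25.6 in High-Low, without passing the test (limma, unadjusted p = 0.12, adjusted p = 0.998). PKLR made up 42.5% to 77.0% of the sum of both, with the largest share in High-Low 1. HK1 and PKM were lowest in High-Low 1. So were the summed markers of 4 other cell types. Those of stellate cells, bile duct and neutrophils were second lowest in High-Low 1, by small gaps. Stellate markers summed to 102.3 FPKM in High-Low 1 against 101.6 in 2×Trp 2, and bile duct markers to 16.5 against 16.0 in High-Low 3. Neutrophil markers summed to 42.5 FPKM against 39.4 in 2×Trp 1. Of the 4 types lowest in High-Low 1, endothelial markers summed to 112 FPKM in it against 149 to 222 in the other 5 libraries. Macrophage markers summed to 259 FPKM against 332 to 584. Erythroid markers summed to 1818 FPKM against 4412 to 15895, and lymphocyte markers to 2.03 against 3.12 to 5.42. A single gene, HBB, held 1793 of the 1818 FPKM. Of 6 lymphocyte markers with a row 1 passed the filter, and 3 stayed under 1 FPKM in every library. The macrophage marker MARCO was not low in High-Low 1, at 14.3 FPKM against 6.12 to 19.7 elsewhere. Of the 11 endothelial markers with a row, 3 were lowest in High-Low 2 and TEK in 2×Trp 3. EGFL7 held 33.1 of the 112 endothelial FPKM in High-Low 1. The part of these 4 cell types in the HK1 and PKM values was not tested. PFKL was the main phosphofructokinase, at 84.2% to 87.6% of its family, and PFKP had 3.42 ± 1.01 FPKM in 2×Trp and 2.37 ± 0.557 in High-Low (SD, n = 3 each).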
